A study of Homo sapiens with 27 samples.

Results

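The genes examined here were 9 components of the insulin and IGF1 signalling route from the cell surface to the FOXO transcription factors: the receptors INSR and IGF1R, the docking proteins IRS1 and IRS2, the PI3-kinase subunits PIK3R1 and PIK3CA, the PI3-kinase inhibitor PIK3IP1, and the transcription factors FOXO1 and FOXO3. They were taken by symbol from the deposited expression table, in which all 9 were found among 13523 genes, and all 9 passed the filter on low values that left 13052 genes for testing.

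Insulin and IGF1 receptors are tyrosine kinases that phosphorylate IRS proteins, and phosphorylated IRS proteins recruit PI3-kinase, whose lipid product leads to activation of AKT. AKT phosphorylates FOXO factors and keeps them out of the nucleus. When the pathway is low, FOXO factors enter the nucleus, and INSR and IRS2 are among the genes that they are known to activate in several tissues, a loop usually called FOXO feedback.

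Polyadenylated RNA was measured by 3′ end sequencing in 501mel, a human melanoma cell line, so that each read marks the 3′ end of a transcript. Parental cells (WT) were untreated, kept in HBSS for 12 h, or treated with 250 nM Torin for 12 h. HBSS is a balanced salt solution that holds glucose and no amino acids, and Torin inhibits the mTOR kinase. Knockout cells lacking TFE3 (TFE3 KO), TFEB (TFEB KO) or both (DKO), transcription factors of the MITF family that mTORC1 holds in check, were each measured as a 12 h control and after 250 nM Torin for 12 h. The 9 groups had 3 libraries each. All groups shared the 501mel background, and the labels gave medium with serum for all cells. Whether serum was present during HBSS was not given in the sources used here. TFE3 KO and TFEB KO were each 1 clone by the study's description, so genotype and clone cannot be told apart, and WT controls were labelled as non-treated while knockout controls carried a time of 12 h.

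One column was deposited with identical values in all 13523 genes as WT HBSS replicate 3 and as WT Torin replicate 1. It was left out under both labels, which left 2 libraries in WT HBSS, 2 in WT Torin and 25 in all. The libraries held 4147050 to 6526392 reads in the table, and 3 reads corresponded to a normalised value of 0.460 to 0.711. All 7 melanocyte lineage genes looked for were in the table, with summed values of 5123 to 14453, while none of the keratinocyte, endothelial and leukocyte markers was in the table and the fibroblast genes COL1A1 and LUM reached at most 6.62 together. TFE3 averaged 24.0 ± 0.285 in untreated WT, 6.30 ± 1.27 in TFE3 KO and 6.35 ± 0.470 in DKO controls (SD, n = 3). TFEB was 3.25 ± 0.827 in untreated WT, 1.11 ± 0.485 in TFEB KO, 0.661 ± 0.457 in DKO and also low, at 0.681 ± 0.764, in TFE3 KO (SD, n = 3). The TFEB values of the knockouts lie near the value of 3 reads, while those of TFE3 in TFE3 KO and DKO lie well above it. Whether the remaining TFE3 reads come from edited transcripts was not tested.

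In genome build hg38 with GENCODE v44, the members lie on 8 chromosomes. INSR is at chr19:7112255-7294414 on the minus strand, IGF1R at chr15:98648539-98964530 on the plus strand, IRS1 at chr2:226731312-226799820 on the minus strand and IRS2 at chr13:109752695-109786583 on the minus strand. PIK3R1 is at chr5:68215740-68301821 on the plus strand, PIK3CA at chr3:179148114-179240093 on the plus strand and PIK3IP1 at chr22:31281594-31292534 on the minus strand. FOXO1 is at chr13:40555667-40666641 on the minus strand and FOXO3 at chr6:108559835-108684774 on the plus strand. A 3′ library reads mainly the last exon. The last exon of PIK3CA is overlapped on the other strand by KCNMB3, at 0.209 to 8.32 over the 25 libraries, and whether reads were counted by strand is not given in the sources used here. FOXO3 has a near-identical copy, FOXO3B, at 11.9 to 25.1. The last exons of IGF1R and FOXO1 are overlapped by annotated lncRNAs, SYNM-AS1 on the other strand for IGF1R and one on the same strand for FOXO1. IGF1R, PIK3CA, FOXO1 and FOXO3 are therefore reported as uncertain in so far as reads could be shared.

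The promoters of the members were searched for short motifs, because 2 of the members are FOXO factors and the knocked-out factors belong to the MITF family. The windows ran from 250 bases before to 50 after each RefSeq transcript start (GRCh38.p14), and both strands were read. CACGTG, the E-box core of the MITF family, was present in 7.26% of 35116 such windows, CATGTG, the M-box core, in 11.1%, and GTAAACA, a FOXO core, in 3.42%. A single chromosome, which holds no member, was left out of these windows. PIK3R1 and FOXO3 had 4 windows each, PIK3IP1 had 2 and each other member had 1. Whether the members held more matches than these shares was not tested. The matches in the members are printed with the motif in capitals, read 5′ to 3′ on the strand of the gene.
IRS1, E-box 36 bases after the start, chr2:226799771-226799795, minus strand: gaggctccgtCACGTGtttttctcc
IRS2, M-box 47 bases before the start, chr13:109786615-109786640, minus strand: aacgccgagtCACATGttgttttgct
PIK3CA, FOXO core 149 bases before the start, chr3:179148198-179148224, plus strand: gttcgttgttTGTTTACacgatgtgag
PIK3IP1, FOXO core 17 bases after the start, chr22:31292456-31292482, minus strand: aaagagaggcTGTTTACcagaacagca
The windows of INSR, IGF1R, PIK3R1, FOXO1 and FOXO3 held none of these letters. A match describes the sequence and is not a binding site shown by these data.

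**Figure D1:**
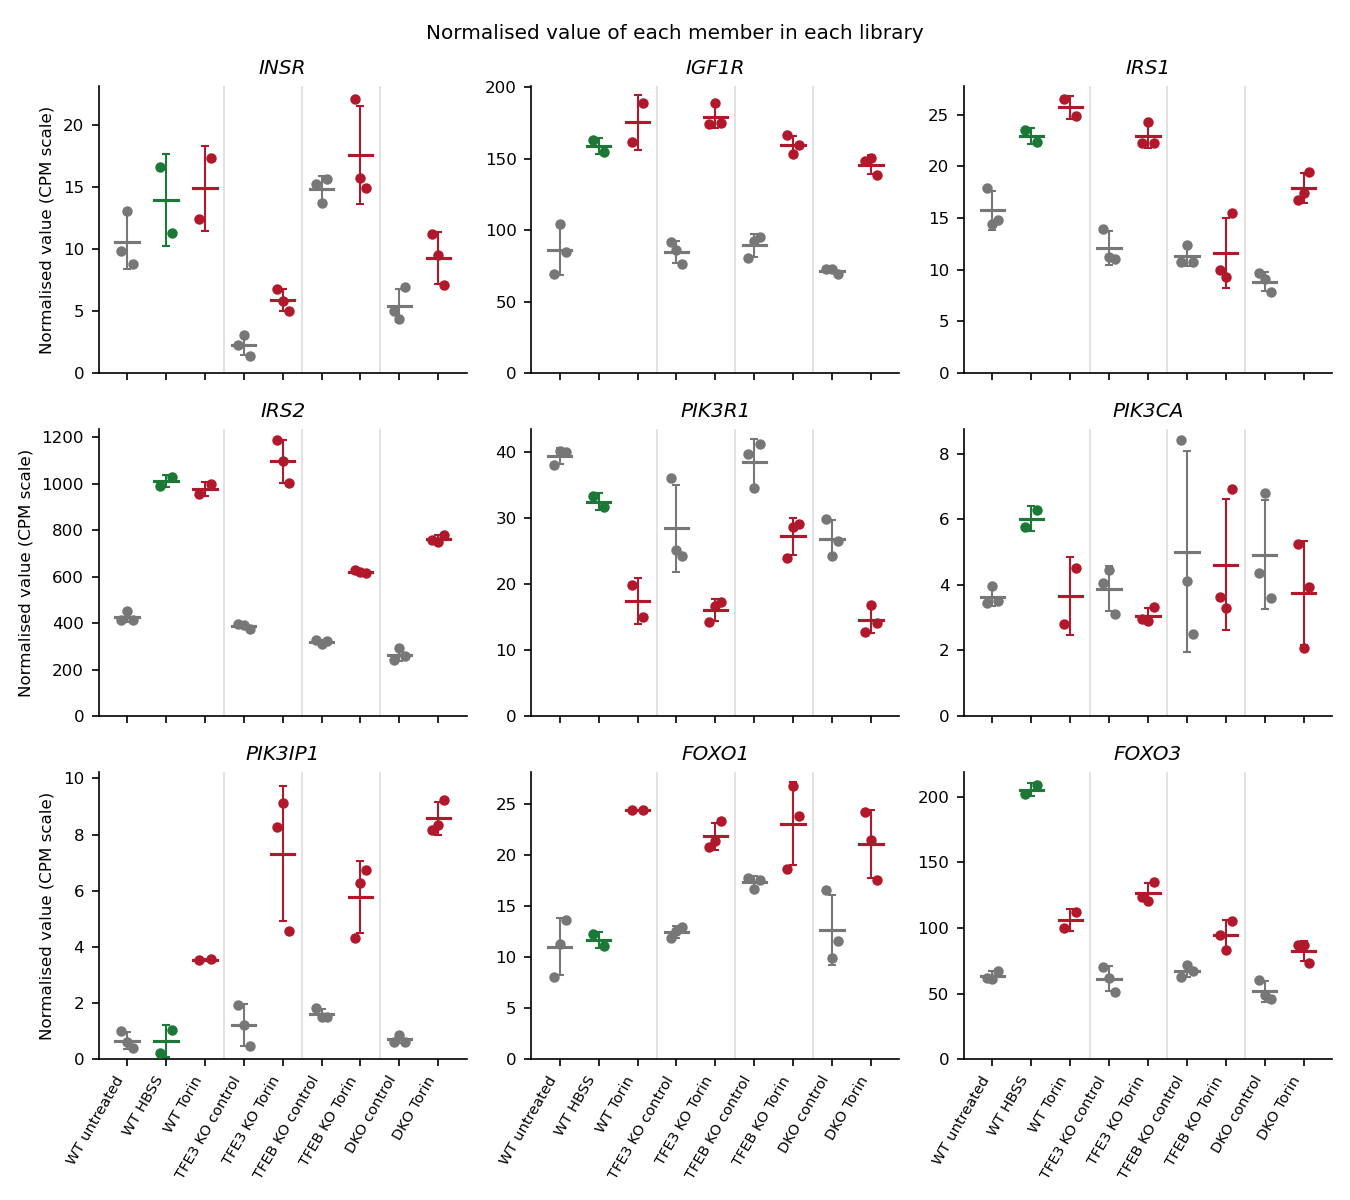
Normalised value (linear axis, CPM scale) of each of the 9 members in every library used, by group; points are libraries, the wide bar is the mean and the error bar the SD. IRS2 sits at 414 to 453 in untreated WT and at 958 to 1029.9 in WT HBSS and WT Torin, and PIK3IP1 is at or below 1.05 in untreated WT and WT HBSS and at 3.52 and 3.56 in WT Torin.

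The first question was how the pathway's own transcripts change when nutrients are removed or mTOR is inhibited. Amino acid-free HBSS raised 4 of the 9 members (IGF1R, IRS1, IRS2 and FOXO3) and lowered none by limma at adjusted p under 0.05, where 23.6% of all tested genes were higher and 24.7% lower. Torin raised 6 (IGF1R, IRS1, IRS2, PIK3IP1, FOXO1 and FOXO3) and lowered 1, PIK3R1, where 20.5% of genes were higher and 23.4% lower. The median log2 fold change of the members was 0.52 in HBSS against -0.03 over all genes, and 0.73 in Torin against 0.00 over all genes. Both treatments were compared with the same 3 untreated libraries, so these counts are not independent of each other. Labels do not say whether libraries of a group came from separate cultures, so p-values measure the spread between these libraries, which may be technical. In these bulk samples fewer cells of a kind and less RNA per cell cannot be told apart.

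Of the receptors, IGF1R, which binds IGF1 and IGF2, responded and INSR, the receptor for insulin itself, did not pass the test in WT cells. IGF1R was 69.0, 105 and 84.7 in untreated WT, 163 and 155 in HBSS, and 162 and 189 in Torin. Both treatments put every library above every untreated one. The log2 fold change on log2(value + 1) was 0.90 ± 0.11 (SE) in HBSS (limma adjusted p = 1.77e-09) and 1.03 ± 0.11 in Torin (limma adjusted p = 7.10e-11). INSR was 9.86, 13.1 and 8.78 in untreated WT, 16.6 and 11.3 in HBSS and 12.4 and 17.3 in Torin, and the groups overlapped. Its log2 fold change was 0.36, with a 95% interval of -0.13 to 0.85, in HBSS and 0.46, with an interval of -0.03 to 0.94, in Torin.

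Both docking proteins rose. IRS2, which couples both receptors to PI3-kinase, was 414, 453 and 415 in untreated WT, 993 and 1029.9 in HBSS, and 958 and 999 in Torin. No treated library came near an untreated one, and the means were 2.37 and 2.29 times the untreated mean. In log2 terms IRS2 rose by 1.24 ± 0.08 in HBSS (limma adjusted p = 1.28e-18) and 1.19 ± 0.08 in Torin (limma adjusted p = 8.74e-18). IRS1, the other widely expressed docking protein, was 17.9, 14.4 and 14.8 in untreated WT, 23.5 and 22.4 in HBSS and 26.5 and 24.9 in Torin. Its treated libraries were also all above the untreated ones, by a smaller step. IRS1 rose by a log2 fold change of 0.52 ± 0.18 in HBSS (limma adjusted p = 0.0155) and 0.68 ± 0.18 in Torin (limma adjusted p = 0.00209). The HBSS call of IRS1 was lost without WT untreated replicate 2 (limma adjusted p = 0.0528), without HBSS replicate 1 (0.0927) or without HBSS replicate 2 (0.0545).

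PIK3R1 fell with Torin, and PIK3CA passed in neither treatment. PIK3R1 encodes p85 alpha, the regulatory subunit that stabilises the catalytic subunit and docks it on IRS proteins. It was 38.0, 40.2 and 40.0 in untreated WT, 33.4 and 31.6 in HBSS, and 19.9 and 14.9 in Torin. Torin left it at 0.443 times the untreated mean, a log2 fold change of -1.14 ± 0.16 (limma adjusted p = 9.82e-08). In HBSS both libraries were below the untreated ones, but the log2 fold change of -0.27 did not pass (limma adjusted p = 0.169). PIK3CA, the catalytic p110 alpha, was 3.45, 3.96 and 3.51 in untreated WT, 5.75 and 6.28 in HBSS and 2.81 and 4.50 in Torin. It rested on 11 to 39 reads a library over all groups and passed in none of the comparisons. Its HBSS difference of 0.60 had a 95% interval of -0.05 to 1.24.

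PIK3IP1, a transmembrane protein that binds and inhibits p110, was barely detected without Torin. It was 0.986, 0.594 and 0.390 in untreated WT and 0.230 and 1.05 in HBSS, which is 1 to 6 reads a library. In Torin it was 3.52 and 3.56, 15 reads in each library, above every untreated and every HBSS library. The log2 fold change on log2(value + 1) was 1.47 ± 0.31 for Torin (limma adjusted p = 0.000106) and -0.05 for HBSS (limma adjusted p = 0.917). At these counts the added pseudocount of 1 makes the fold change smaller than the ratio of the values.

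The FOXO genes also differed by treatment. FOXO1, a main effector of insulin signalling, was 8.05, 11.3 and 13.7 in untreated WT, 12.2 and 11.1 in HBSS, and 24.4 in each Torin library. The HBSS libraries lay inside the untreated range and the Torin libraries well above it. For FOXO1 the log2 fold change was 0.10 in HBSS, with a 95% interval of -0.28 to 0.49, and 1.11 ± 0.19 in Torin (limma adjusted p = 5.17e-06). FOXO3, a related factor known for stress and autophagy genes, was 61.8, 61.4 and 67.3 in untreated WT, 202 and 209 in HBSS, and 100.3 and 112 in Torin. All treated libraries were above the untreated ones, and HBSS was above Torin. FOXO3 rose by a log2 fold change of 1.68 ± 0.12 in HBSS (limma adjusted p = 1.13e-16) and 0.73 ± 0.12 in Torin (limma adjusted p = 1.43e-06). FOXO3B, the copy, averaged 15.8 in untreated WT, 23.3 in HBSS and 20.4 in Torin, and its part in the FOXO3 values was not tested.

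Compared directly in WT, HBSS and Torin differed in 4 of the 9 members. PIK3R1 and FOXO3 were higher in HBSS, by log2 fold changes of 0.87 ± 0.18 (limma adjusted p = 5.75e-05) and 0.95 ± 0.13 (limma adjusted p = 3.68e-08). PIK3IP1 and FOXO1 were lower in HBSS, by -1.52 ± 0.34 (limma adjusted p = 0.000206) and -1.01 ± 0.21 (limma adjusted p = 8.53e-05). Over all tested genes 26.1% were higher and 23.1% lower in HBSS. The member counts, 2 higher and 2 lower of 9, are near these shares. The receptor and docking genes did not pass. The difference of IRS2 was 0.05, with a 95% interval of -0.12 to 0.22, and that of IGF1R was -0.14, with an interval of -0.38 to 0.10. With the duplicated column kept as WT Torin, the calls of PIK3R1 (limma adjusted p = 0.0850) and FOXO1 (limma adjusted p = 0.0937) were lost. That column held PIK3R1 at 36.4 and FOXO1 at 10.0, nearer to the HBSS libraries of each gene than to the Torin libraries.

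**Figure D2:**
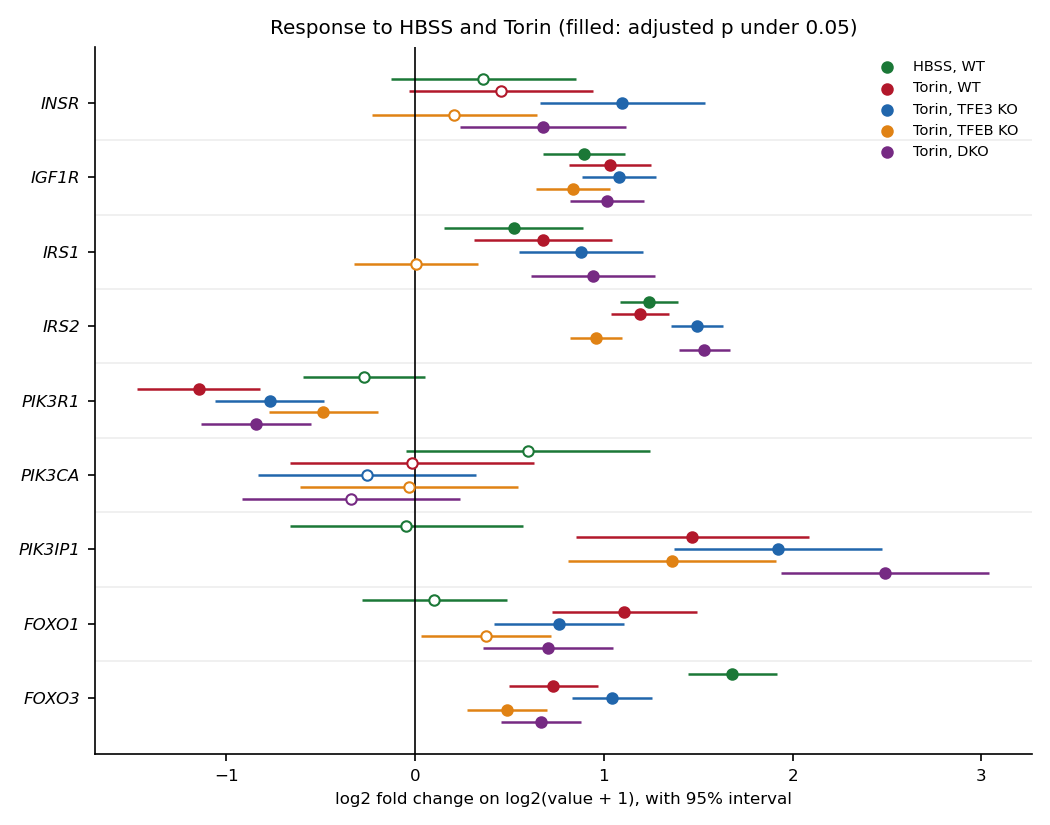
Log2 fold change on log2(value + 1) with its 95% interval (x axis) for each member (y axis) in HBSS against untreated WT and in Torin against the matching control of each genotype; filled points passed at adjusted p under 0.05 and open points did not. IRS2 is filled in all 5 comparisons, PIK3R1 lies left of 0 and is filled in the 4 Torin comparisons, and IRS1 in TFEB KO is open at 0.

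The next question was what TFE3 and TFEB contribute to these levels without drug. INSR stood out in cells lacking TFE3. It was 9.86, 13.1 and 8.78 in untreated WT, 2.30, 3.07 and 1.40 in TFE3 KO (9 to 20 reads a library), 4.99, 4.36 and 6.89 in DKO, and 15.3, 13.7 and 15.6 in TFEB KO. The TFE3 KO and DKO libraries were all below WT, and the TFEB KO libraries were all above it. INSR fell in TFE3 KO to 0.213 times the WT mean, a log2 fold change of -1.85 ± 0.22 (limma adjusted p = 1.02e-08), and in DKO by a log2 fold change of -0.85 ± 0.22 (limma adjusted p = 0.00468). In TFEB KO the log2 fold change of 0.47 did not pass (limma adjusted p = 0.146). The DKO call was lost without WT untreated replicate 2 (limma adjusted p = 0.0532).

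The docking genes were lowest in DKO. IRS2 was 239.8, 295 and 257 in DKO, 327, 309 and 323 in TFEB KO and 395, 394 and 377 in TFE3 KO, against 414 to 453 in untreated WT. The 4 control groups did not overlap for IRS2. The log2 fold change against WT was -0.70 ± 0.07 in DKO (limma adjusted p = 3.75e-11), -0.42 ± 0.07 in TFEB KO (limma adjusted p = 1.81e-05), and -0.14 in TFE3 KO, which did not pass (limma adjusted p = 0.225). IRS1 was 9.66, 9.06 and 7.83 in DKO, and fell there by a log2 fold change of -0.76 ± 0.16 (limma adjusted p = 0.000699). It averaged 11.3 ± 0.942 in TFEB KO (limma adjusted p = 0.0590) and 12.1 ± 1.63 in TFE3 KO (limma adjusted p = 0.178), so neither single knockout passed.

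Of the remaining members, PIK3R1 was 36.0, 25.2 and 24.2 in TFE3 KO and 29.9, 24.2 and 26.5 in DKO. All 6 libraries were below untreated WT, although TFE3 KO replicate 1 was close to it. Its log2 fold change was -0.48 ± 0.14 in TFE3 KO (limma adjusted p = 0.0255) and -0.54 ± 0.14 in DKO (limma adjusted p = 0.00721). The TFE3 KO call was lost without WT untreated replicate 2 (limma adjusted p = 0.0733) or 3 (0.0759), or without TFE3 KO control replicate 2 (0.145) or 3 (0.169), and the DKO call without DKO control replicate 2 (0.0540). FOXO1 was 17.8, 16.7 and 17.6 in TFEB KO, above every untreated WT library. Its log2 fold change was 0.64 ± 0.17 (limma adjusted p = 0.00771), and the call was lost without WT untreated replicate 1 (limma adjusted p = 0.103). In DKO control, which also lacks TFEB, FOXO1 averaged 12.7 against 11.0 in untreated WT, and the libraries overlapped. FOXO3 was 60.6, 48.6 and 45.9 in DKO. Its log2 fold change of -0.30 ± 0.11 passed narrowly (limma adjusted p = 0.0493) and was lost in 13 alternatives, among them edgeR (adjusted p = 0.0865), DESeq2 (adjusted p = 0.0945) and the fits without any 1 of the 3 WT untreated libraries (limma adjusted p = 0.0653 to 0.182), DKO control replicate 2 (0.173) or 3 (0.228).

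**Figure D3:**
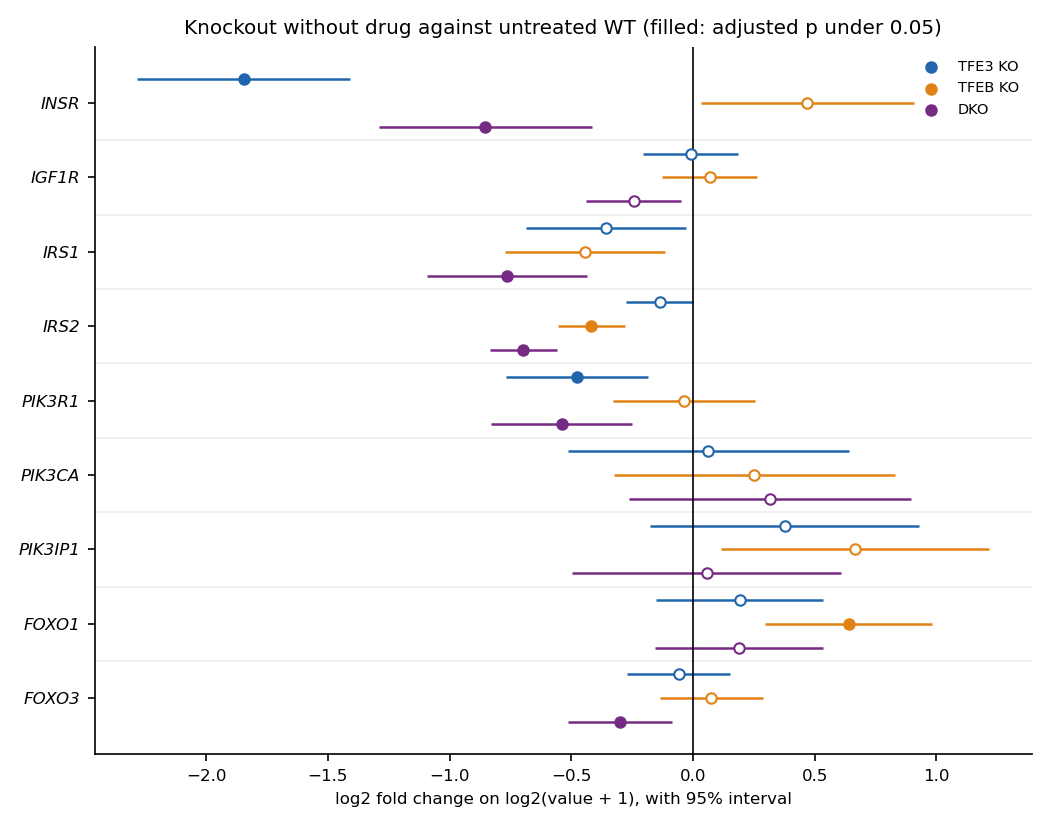
Log2 fold change on log2(value + 1) with its 95% interval (x axis) of each member (y axis) in the 3 knockouts without drug against untreated WT; filled points passed at adjusted p under 0.05. INSR is at -1.85 in TFE3 KO and -0.85 in DKO and open at 0.47 in TFEB KO.

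In counts, TFE3 KO had 0 members higher and 2 lower, where 3.57% of tested genes were higher and 5.84% lower. TFEB KO had 1 higher and 1 lower, near the all-gene shares of 7.46% and 7.18%. DKO had 0 higher and 5 lower, where the shares were 5.64% and 7.49%. The 3 comparisons share the untreated WT libraries. Setting the single knockouts against each other, 1 member was higher (IRS2, 0.28 ± 0.07, limma adjusted p = 0.00125) and 3 were lower in TFE3 KO, where 14.3% of tested genes were higher and 15.6% lower. INSR differed by a log2 fold change of -2.31 ± 0.22 (limma adjusted p = 7.74e-12). PIK3R1 (-0.44, limma adjusted p = 0.0168) and FOXO1 (-0.45, limma adjusted p = 0.0416) also passed. FOXO1 lost its call without any 1 of the 6 libraries compared (limma adjusted p = 0.0670 to 0.113), and PIK3R1 without TFEB KO control replicate 1 (0.0545) or 3 (0.0684), or TFE3 KO control replicate 2 (0.0952) or 3 (0.123).

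Torin was then compared with the matching control in each knockout, which asks whether the responses need TFE3 or TFEB. Of the 7 members that passed with Torin in WT, 5 passed in the same direction in each of the 3 knockouts (IGF1R, IRS2, PIK3R1, PIK3IP1 and FOXO3). The matching share over all tested genes was not computed, so this count is a description. In TFE3 KO 7 members rose and 1 fell, where 25.4% of tested genes were higher and 26% lower. In TFEB KO 4 rose and 1 fell, where the shares were 17.4% and 21%. In DKO 7 rose and 1 fell, where the shares were 25.4% and 26.2%. In each knockout the member that fell was PIK3R1.

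IGF1R averaged 84.5 ± 7.87 in TFE3 KO control and 179 ± 8.15 after Torin, 89.3 ± 7.80 and 159.6 ± 6.41 in TFEB KO, and 71.5 ± 1.78 and 146 ± 6.46 in DKO (SD, n = 3). Its log2 fold changes of 1.08, 0.83 and 1.02 stood beside 1.03 in WT. INSR, which did not pass in WT, rose in TFE3 KO from 2.30, 3.07 and 1.40 to 6.78, 5.79 and 4.99, and in DKO from 4.99, 4.36 and 6.89 to 11.2, 9.48 and 7.08. Neither pair of groups overlapped, and in TFE3 KO the treated level remained below that of untreated WT. INSR rose by a log2 fold change of 1.10 ± 0.22 in TFE3 KO (limma adjusted p = 3.37e-05) and 0.68 ± 0.22 in DKO (limma adjusted p = 0.00798). The DKO call was lost without DKO control replicate 2 (limma adjusted p = 0.0538) or DKO Torin replicate 1 (0.0629). In TFEB KO the log2 fold change of INSR was 0.21, with a 95% interval of -0.23 to 0.65.

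IRS2 reached 1188, 1098 and 1005 in TFE3 KO, 759, 749.9 and 781 in DKO, and 628, 621 and 618 in TFEB KO after Torin. The last group lay above every untreated library of any genotype and below every other treated library. IRS2 rose by a log2 fold change of 1.49 ± 0.07 in TFE3 KO (limma adjusted p = 1.70e-23), 1.53 ± 0.07 in DKO (limma adjusted p = 8.00e-24) and 0.96 ± 0.07 in TFEB KO (limma adjusted p = 4.75e-16). IRS1 rose in TFE3 KO to 22.3, 24.3 and 22.3 and in DKO to 16.8, 17.4 and 19.5, by log2 fold changes of 0.88 ± 0.16 and 0.94 ± 0.16. In TFEB KO it was 10.7, 12.4 and 10.8 without and 10.0, 9.27 and 15.5 with Torin, and the groups overlapped. The log2 fold change there was 0.00, with a 95% interval of -0.32 to 0.33 (limma adjusted p = 0.984).

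PIK3R1 fell with Torin from a mean of 28.4 to 16.1 in TFE3 KO, from 38.5 to 27.2 in TFEB KO and from 26.9 to 14.6 in DKO. Its log2 fold changes were -0.77, -0.48 and -0.84 (limma adjusted p = 1.44e-05, 0.00628 and 3.39e-06), and the TFEB KO call was lost without TFEB KO Torin replicate 1 (limma adjusted p = 0.0513). The inhibitor PIK3IP1 moved the other way. It was 8.27, 9.13 and 4.58 in TFE3 KO, 4.31, 6.28 and 6.72 in TFEB KO and 8.15, 8.34 and 9.25 in DKO after Torin, against 0.468 to 1.94 in all 9 knockout controls. Treated and control libraries did not overlap in any genotype. The log2 fold changes were 1.92 ± 0.27, 1.36 ± 0.27 and 2.49 ± 0.27 (limma adjusted p = 7.30e-08, 7.93e-05 and 1.30e-10).

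FOXO1 rose with Torin from 11.8, 12.6 and 12.9 to 20.8, 21.4 and 23.3 in TFE3 KO (log2 fold change 0.76 ± 0.17, limma adjusted p = 0.000203) and from 16.5, 9.94 and 11.6 to 24.2, 21.4 and 17.5 in DKO (0.71 ± 0.17, limma adjusted p = 0.000554). In TFEB KO, whose control level was already higher, it was 18.6, 26.7 and 23.8 after Torin, and the log2 fold change of 0.38 did not pass (limma adjusted p = 0.0761), although edgeR called it (adjusted p = 0.0252) as did DESeq2 (adjusted p = 0.0390). FOXO3 rose in all 3 knockouts, to means of 126 ± 7.78 in TFE3 KO, 94.5 ± 11.2 in TFEB KO and 82.5 ± 7.90 in DKO (SD, n = 3). Its log2 fold changes were 1.04, 0.49 and 0.67 (limma adjusted p = 1.07e-11, 0.000223 and 6.11e-07). The range of FOXO3 after Torin in the knockouts was below its HBSS values of 202 and 209.

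Whether a response differed from that of WT was tested as the difference of 2 responses. None of the 9 members passed by limma for TFE3 KO, TFEB KO or DKO, and edgeR and DESeq2 also gave 0. At an unadjusted limma p under 0.05 there were 1, 4 and 2 members, where 10.7%, 13.6% and 9.82% of all tested genes were under it. At adjusted p under 0.05, 0.49% of all tested genes had a larger and 0.575% a smaller response in TFE3 KO than in WT. The shares were 0.812% and 0.345% for TFEB KO and 0.314% and 0.192% for DKO. For IRS1 the response of TFEB KO minus that of WT was -0.67, with a 95% interval of -1.17 to -0.18 (limma adjusted p = 0.178).

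After these values were seen, the knockouts were also compared with each other. The Torin response was larger in TFE3 KO than in TFEB KO for 3 members, IRS1 (by 0.87 ± 0.23, limma adjusted p = 0.0112), IRS2 (by 0.53 ± 0.10, limma adjusted p = 0.000124) and FOXO3 (by 0.56 ± 0.15, limma adjusted p = 0.0126), and smaller for 0, where 3.1% of tested genes had a larger and 4.58% a smaller response. It was larger in DKO than in TFEB KO for 2, IRS1 (by 0.94 ± 0.23, limma adjusted p = 0.00826) and IRS2 (by 0.57 ± 0.10, limma adjusted p = 6.94e-05), where the shares were 2.13% and 3.49%. Both use the TFEB KO libraries. The FOXO3 call was lost without TFEB KO Torin replicate 2 (limma adjusted p = 0.0574) or TFE3 KO control replicate 3 (0.0780). With the duplicated column kept as WT Torin, the IRS1 calls were lost for TFE3 KO (limma adjusted p = 0.0536) and DKO (0.0609), as was the FOXO3 call (0.3015). Kept under both labels, the column removed the FOXO3 call (0.276) and the IRS1 call of DKO (0.0537). The INSR difference between TFE3 KO and TFEB KO, 0.89 with a 95% interval of 0.27 to 1.51, did not pass (limma adjusted p = 0.0660).

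Around the members, 6 lists of pathway genes held 82 symbols, of which 73 were in the table and tested. In HBSS 39 of the 73 were higher and 6 lower, where 23.6% and 24.7% of all tested genes were. In Torin 28 were higher and 14 lower, where the all-gene shares were 20.5% and 23.4%, so that the part lower in Torin was no larger than over all genes. The medians were 0.43 and 0.17 against -0.03 and 0.00 over all genes. The lists were chosen with results of these data known, so their direction is a description.

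Among 13 receptor adaptors and brakes, HBSS raised 8 and lowered 2 (all genes 23.6% and 24.7%), while Torin raised 3 and lowered 5 (all genes 20.5% and 23.4%), and the count raised by Torin is near the all-gene share. GAB2 and GAB1, docking proteins related in role to the IRS proteins, were higher in HBSS by log2 fold changes of 1.79 and 1.37, and GRB10, an adaptor that restrains the insulin receptor, by 1.01. CBLB, a ubiquitin ligase for receptor signalling, rose in both, by 1.11 in HBSS and 1.77 in Torin, and in the 3 knockouts with Torin by 1.85, 1.14 and 1.87. PTPN1, a phosphatase that dephosphorylates the insulin receptor, was 1.59 higher in HBSS than in Torin on the log2 scale. PTPRF, another receptor phosphatase, was lower in TFE3 KO, as INSR was, by 1.12 on the log2 scale. In DKO control, which also lacks TFE3, PTPRF averaged 21.8 against 28.6 in untreated WT and did not pass.

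Of 5 ligands and binding proteins, HBSS raised 2, where 23.6% of all genes were higher. IGF1 itself rose in HBSS by 1.41, from a mean of 3.55 in untreated WT to 11.1. IGFBP5, an IGF-binding protein, was higher in TFEB KO by 1.40. It averaged 14.9 there and 5.13 in untreated WT, but 5.28 in DKO control, which also lacks TFEB. Of 8 other PI3-kinase subunits, HBSS raised 4 and lowered 1 (all genes 23.6% and 24.7%), and Torin raised 2 (all genes 20.5%), which is near the all-gene share. PIK3CD, the p110 delta catalytic subunit, rose by 1.06 in HBSS, and PIK3C2B, a class II enzyme, fell by 1.95 on the log2 scale, to 1 to 7 reads a library. Of 8 phosphatases, HBSS raised 3 (all genes 23.6%) and Torin 4 (all genes 20.5%), with PHLPP1, which dephosphorylates AKT, at 1.08 in HBSS.

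Of 17 AKT and mTOR kinases and regulators, HBSS raised 7 and lowered 1 (all genes 23.6% and 24.7%). Torin raised 4 and lowered 4, near the all-gene shares of 20.5% and 23.4%, so the Torin counts are no result about this list. RICTOR, a defining subunit of mTORC2, rose by 1.32 and TSC1, a brake on mTORC1, by 1.02 in HBSS. DEPTOR, an inhibitory mTOR partner, rose in HBSS by 1.11, on 4 and 22 reads in the 2 libraries. It rose with Torin in every genotype, by 2.77 in WT, 2.75 in TFE3 KO, 1.32 in TFEB KO and 2.54 in DKO, from control libraries of 0 to 14 reads.

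FOXO4, FOXO6 and genes commonly listed as FOXO targets made a list of 22, which was described because FOXO1 and FOXO3 levels alone do not show FOXO activity. HBSS raised 15 and lowered 2 (all genes 23.6% and 24.7%), and Torin raised 14 and lowered 5 (all genes 20.5% and 23.4%), where the count lowered is near the all-gene share. FBXO32 and TRIM63, ubiquitin ligases known from muscle atrophy, rose in HBSS by 1.73 and 2.32, and FBXO32 rose by 1.54 in Torin. TXNIP, which binds thioredoxin and restrains glucose uptake, rose by 1.57 and 1.44, and CCNG2, an atypical cyclin of quiescent cells, by 1.51 and 1.48. The treatments parted at GADD45A, a DNA damage gene, and at SESN1 and SESN3, sestrins that restrain mTORC1. These were higher in HBSS than in Torin by 1.91, 1.22 and 1.28. In WT Torin SESN1 averaged 4.36 against 8.89 in untreated WT, and SESN3 15.7 against 25.8, with every Torin library below every untreated one. GADD45A averaged 13.3 against 19.0, and its libraries overlapped.

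In the knockouts with Torin, 12 of the 22 were higher and 3 lower in TFE3 KO (all genes 25.4% and 26%), 12 higher and 2 lower in TFEB KO (17.4% and 21%), and 13 higher and 4 lower in DKO (25.4% and 26.2%). TXNIP rose by 1.77, 1.23 and 1.85 in that order. Without drug FBXO32 rose in TFEB KO by 1.17, and between the single knockouts it was lower in TFE3 KO (FBXO32 log2 fold change -1.90). Its mean was 87.2 in TFEB KO and 38.5 in untreated WT, but 35.6 in DKO control, which also lacks TFEB. FOXO6 fell in TFE3 KO by a log2 fold change of -1.02, to a mean of 2.71 against 6.52 in untreated WT. The DKO control cells also lack TFE3, and there FOXO6 averaged 13.2. With Torin it fell by log2 fold changes of -1.25 in TFEB KO and -1.52 in DKO.

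**Figure D4:**
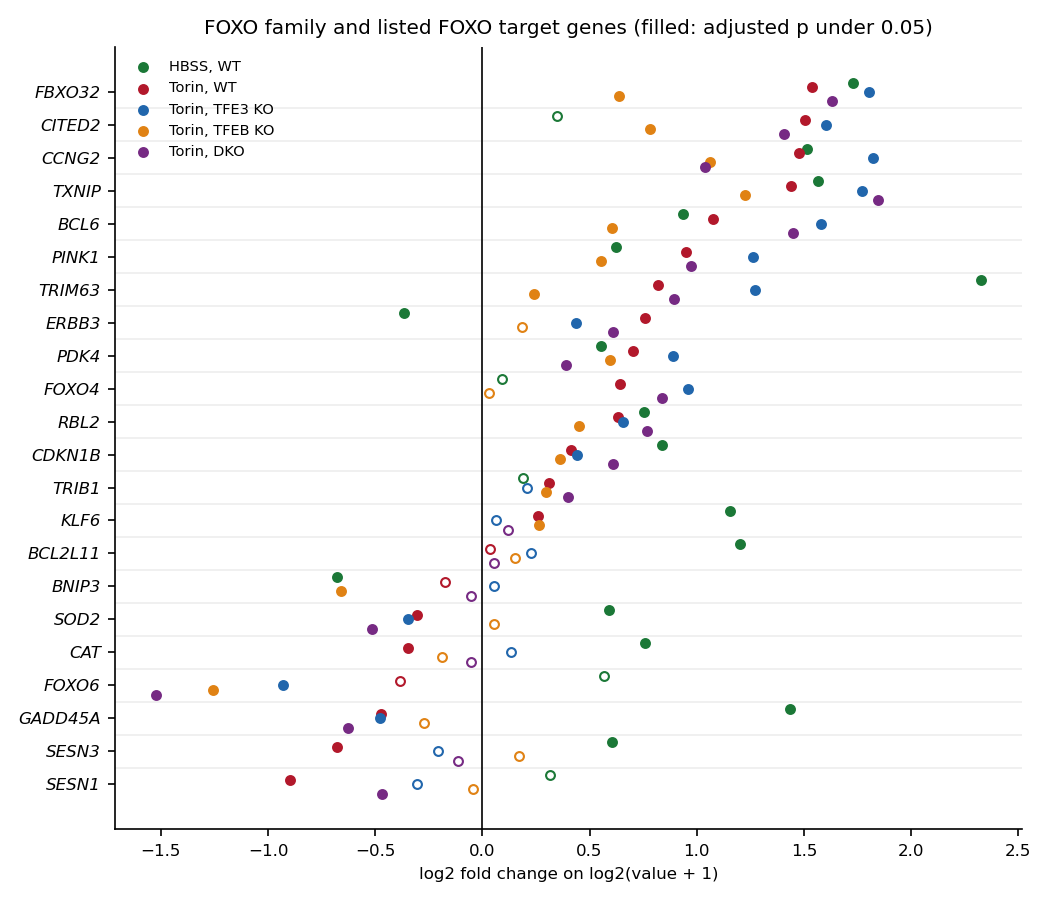
Log2 fold change on log2(value + 1) (x axis) of the 22 listed FOXO family and target genes (y axis, ordered by the Torin response in WT) in HBSS and in Torin by genotype; filled points passed at adjusted p under 0.05. TXNIP and CCNG2 are filled to the right of 0 in all 5 comparisons, while GADD45A is at 1.44 in HBSS and at -0.47 in Torin in WT.

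Across the 9 group means, ordered by level, IRS2 was highest in TFE3 KO with Torin, WT HBSS and WT Torin, neighbours whose libraries overlapped, and then fell through 6 groups with no overlap between neighbours to DKO control. FOXO3 was highest in WT HBSS, apart from all other groups. INSR was lowest in TFE3 KO control, apart from the next group. Pearson's r of each member was computed over the 9 group means of log2(value + 1) against 8440 or 8441 tested genes averaging at least 10. The groups share their genotypes and treatments, and r is a description with no test. The genes most like a member are those with the highest r of that search. For IRS2 they were POU3F2 (r = 0.992), CCDC171 (0.992) and TFAP2A (0.992), and for FOXO3 CLCN7 (0.994), BEST1 (0.990) and SPAG9 (0.989). For IGF1R they were PDCD4 (0.988), SYF2 (0.988) and EEF2 (0.986), and for PIK3R1 MAGT1 (0.989), SUZ12 (0.985) and ATP2A2 (0.984). For INSR they were RAB11FIP1 (0.961), IQSEC1 (0.939) and PJA2 (0.930), and for IRS1 GSTP1 (0.966), BAG6 (0.960) and RPL32 (0.957). For FOXO1 they were ENDOV (0.970), AHNAK2 (0.967) and ANKRD6 (0.964). PIK3IP1 was most like DUS4L (0.982), FAM172A (0.978) and DOCK6 (0.975), and PIK3CA most like PTTG1 (0.964), LINC00698 (0.958) and PLEKHO2 (0.952), at low counts. Among the members themselves IGF1R and IRS2 had r = 0.952 and PIK3R1 and PIK3IP1 r = -0.802.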

How the data were processed

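RNA of 501mel cells was sequenced from the 3′ end (QuantSeq Forward). Per the labels and the study's methods, the authors trimmed reads with cutadapt 2.10, checked them with FastQC 0.11.9, aligned them to hg38 with STAR 2.7.8a and normalised with edgeR. The counter, the annotation, the gene filter and whether strand was used are not given in the sources used here. The deposited signal values are CPM-scale values divided by a scaling factor. Whole reads were recovered from them in 100% of values (tolerance 0.1 read), which gave 4147050 to 6526392 reads a library.

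Values were tested as log2(value + 1) with limma 3.58.1 in R 4.3.3 (trend and robust), with 25 libraries in 1 fit and 13052 genes of value at least 1 in at least 3 libraries (471 were not tested), with Benjamini-Hochberg adjustment within each of 15 comparisons. 13 comparisons were planned and 2 were added after values were seen. Passed means adjusted p under 0.05. Of each pathway list at most 4 genes that passed and changed by 1 or more on the log2 scale are named per comparison, the largest first, and a gene of that choice may be followed into other comparisons. The 3 genes most like each member are named. The code was tested on simulated data. Alternatives were a pseudocount of 0.1, no filter or a minimum of 5, median-of-ratios scaling, edgeR 4.0.16 and DESeq2 1.42.0 on recovered reads, only the compared libraries, a replicate block, the duplicated column kept, and each library left out. The members, lists and motifs were chosen with earlier results of these data known. Floors cover counting error only.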

Additional observations from a re-analysis of the deposited data

Results flagged for a closer look

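In results that differed between genotypes, the Torin response of TFEB KO was smaller than that of TFE3 KO for IRS2 (difference in log2 fold change 0.53), IRS1 (0.87) and FOXO3 (0.56), and smaller than that of DKO for IRS2 (0.57) and IRS1 (0.94), by limma's test of the difference itself. These comparisons were chosen after the values were seen, and each knockout response rests on 3 control and 3 treated libraries. The differences of IRS1 and FOXO3 did not pass with the duplicated column kept as WT Torin.

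The column deposited under 2 labels was left out of the main fit. It lay above every untreated WT library for IGF1R (151), IRS1 (19.7), IRS2 (936), PIK3CA (7.95) and FOXO3 (211). The share of all genes for which it did so was not computed, so this is a description. FOXO3 was 202 and 209 in the other HBSS libraries and 100.3 and 112 in the other Torin libraries. For PIK3R1 the column held 36.4, against 33.4 and 31.6 in HBSS and 19.9 and 14.9 in Torin. For FOXO1 it held 10.0, against 12.2 and 11.1 in HBSS and 24.4 in each Torin library, and for PIK3IP1 0.757, against 0.230 and 1.05 in HBSS and 3.52 and 3.56 in Torin. In these 4 genes, which differed between HBSS and Torin, its values lay nearer to HBSS than to Torin. Samples were grouped by label and not by value, so it was given to neither group. Groups of 2 or 3 libraries were not examined for single outlying libraries.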

How the results depend on the processing

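Of 135 pairs of a member and a comparison, 54 passed and 39 of these passed in every alternative run. Of 2502 alternative values 57 lost the call, 10 gained it and 0 reversed a called direction, and 69 differed in sign while passing in neither fit. Kept as WT Torin, the duplicated column lowered the members that passed from 4 to 2 for HBSS against Torin, from 2 to 1 for TFE3 KO and for TFEB KO against WT, from 5 to 3 for DKO against WT, from 4 to 2 for TFE3 KO against TFEB KO, from 3 to 1 for the Torin response of TFE3 KO minus TFEB KO, and from 2 to 1 for that of DKO minus TFEB KO. Kept under both labels, it gave 1 for TFE3 KO, 1 for TFEB KO, 3 for DKO, 2 for TFE3 KO against TFEB KO and 1 for DKO minus TFEB KO. It also lowered Torin in TFEB KO from 5 to 4 under either setting (PIK3R1, limma adjusted p = 0.0680 and 0.0621), and TFE3 KO minus TFEB KO from 3 to 2 under both labels (FOXO3, 0.276). Kept as WT HBSS, it added PIK3CA to the calls of HBSS against WT (limma adjusted p = 0.0319) and against Torin (0.0493). A wider spread within WT Torin enters every comparison through the shared fit.

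Leaving out 1 library at a time gave 1 to 2 members for TFE3 KO, 1 to 2 for TFEB KO, 3 to 5 for DKO, 2 to 3 for TFE3 KO against TFEB KO, 3 to 4 for HBSS against WT, 7 to 8 for Torin in DKO and 2 to 4 for the Torin response of TFE3 KO minus TFEB KO. Where that left a group with 1 library, it was assumed to vary like the others.

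With the replicate block, the number of members that passed was unchanged in all 15 comparisons (for example 7 for Torin in WT). Replicate numbers did not pair the libraries: same-number deviations correlated at -0.192 to 0.161 over 92 pairs, and 9 of 25 libraries correlated best with their own number. Rescaling by median-of-ratios moved the median of all genes by at most 0.04 (log2). PIK3CA and PIK3IP1 are limited by read depth.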

Other observations

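The column deposited under 2 labels held INSR at 11.2.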
